A study of Mus musculus with 14 samples.

Results

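The ABC transporters, the organic anion transporting polypeptides (gene symbols beginning with Slco) and the organic ion transporters (gene symbols beginning with Slc22a) were examined in mouse liver as 1 group of carriers. All genes in the probe set annotation used here whose symbol begins with Abca to Abcg and a number, with Slco or with Slc22a were taken, apart from 8 genes (Abcb4, Abcb11, Abcc2, Abcc3, Abcc4, Abcd3, Slco1a1 and Slco1b2) that the same rule left out. This gave 78 genes of 22206 probe sets. Each was read by 1 probe set, so no choice between probe sets was needed.
Livers came from 10-week-old male C57BL/6N mice that wore adjustable clothes on the trunk. In the compression group (n = 7) the clothes were tightened for 8 hours, and in the no-compression group (n = 7) they were worn without added compression. Mice of both groups had been anesthetized with isoflurane when the clothes were attached and again when the livers were taken. The paper also describes anesthesia when the compression was changed, without saying whether this covered both groups. It reports that compression mice ate less and lost more body weight over the compression period than no-compression mice. The groups thus differed in food intake as well as in clothes pressure, and the part of either in the liver values was not tested. Clariom S arrays were used, 1 per mouse, and the values are log2 levels as the authors deposited them.

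ABC proteins use the energy of ATP to move lipids, sterols, bile constituents, drugs and conjugates across membranes. The Slco proteins take up bulky organic anions such as hormone conjugates and drugs from the blood, and the Slc22a proteins carry smaller organic anions, organic cations and carnitine. In hepatocytes uptake carriers lie on the membrane that faces the blood, and many ABC exporters lie on the canalicular membrane, from which their substrates leave with bile. The Abce and Abcf proteins share the ATP-binding domain but carry nothing across membranes, and they act on ribosomes and in translation.

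The factor analysis by which the authors summarised the probes draws most probe sets to an almost constant value, and the median SD over the 14 arrays was 1.04e-05 for all probe sets. Of the 78 genes 11 had an SD above 0.01, here called genes with spread, which is 14.1%, beside 5.58% of all probe sets. They were Abca1, Abca8a, Abcd2, Abcg2, Abcg5, Abcg8, Slco1a4, Slc22a7, Slc22a26, Slc22a28 and Slc22a30. Their SDs lay between 0.147 and 0.953. The other 67 genes had SDs of at most 0.000286, so that no gene lay near the limit. For these 67 a level can be read but no difference between groups, and equal group means say nothing on whether the gene differed in the livers.
Medians of single arrays were between 6.51 and 6.52. Along the leading axis of variation, which held 57.1% of the variance of the 1238 probe sets with spread, the compression arrays scored −4.35 to 2.25, whereas no-compression replicates 6, 3 and 7 stood apart at 16.7, 9.57 and 9.45 from the other no-compression arrays at −6.73 to −3.34. Values without these 3 arrays are given beside the differences of the 11 genes, as a choice made with this result known. The 6 hepatocyte markers examined had levels between 12.40 and 13.39. Of 7 Kupffer cell markers 4 lay above 7.48, the 95th percentile of the levels of 5222 negative control rows, and 0 of 4 cholangiocyte markers, 0 of 3 neutrophil markers and 0 of 4 kidney tubule markers did.

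Among the 78 genes, members of every family other than ABCD gave signals above the negative control limit of 7.48. In 3 organic ion carriers best known from the kidney tubule the signal lay below it. The 8 genes that the rule left out, among them Abcd3, Abcb4 and Abcb11, are in none of these family counts. Probe sets differ in how brightly they read a gene, so that levels are given as positions against the control rows and not compared between genes. In all, 29 of the 78 genes lay above the limit, beside 29.4% of all probe sets. In the ABCA family these were 5 of 16 genes, among them Abca6 at 10.79, Abca1 at 9.37 and Abca3 at 9.05, the last being known for lipid export in lung. In the ABCB family 4 of 7 were above the limit, and all 4 are organelle carriers, namely Abcb6 (8.13), which carries porphyrins, Abcb9 (7.97), a peptide carrier of lysosomes, and Abcb8 (7.88) and Abcb10 (7.75) of mitochondria. Both P-glycoprotein genes, the drug exporters Abcb1a (6.80) and Abcb1b (6.60), lay below it. In the ABCC family the limit was passed by 3 of 7 genes, with Abcc6, which mediates ATP release from hepatocytes, at 8.52, Abcc10, a drug efflux pump, at 8.23 and Abcc9, a subunit of potassium channels, at 8.11. Of the ABCD family 0 of 2 passed, with Abcd4, the cobalamin carrier of lysosomes, at 6.63. All 4 genes of the ABCE and ABCF families passed, including Abce1, which recycles ribosomes, at 9.43 and Abcf1, a translation factor, at 8.16.
Of the ABCG family 3 of 6 passed, and these 3 were also the ones with spread. Abcg1, a sterol exporter of macrophages, lay below the limit at 7.03. The SLCO family had 3 of 12 genes above it, Slco1a4 at 10.15, Slco2b1, an uptake carrier of steroid sulfates, at 9.89, and the prostaglandin carrier Slco2a1 at 8.17. The SLC22A family had 7 of 24 above it, with Slc22a26 (7.72) only through its no-compression mean of 8.04, beside 7.39 in compression livers. Among them were Slc22a30 (11.22), Slc22a23 (9.70) and the carnitine carrier Slc22a5 (8.45). Slc22a6 (5.81), Slc22a8 (5.32) and Slc22a2 (5.48), carriers of the kidney tubule, were below the limit, as were the 4 kidney tubule markers, at 5.71 to 6.36.

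**Figure D1:**
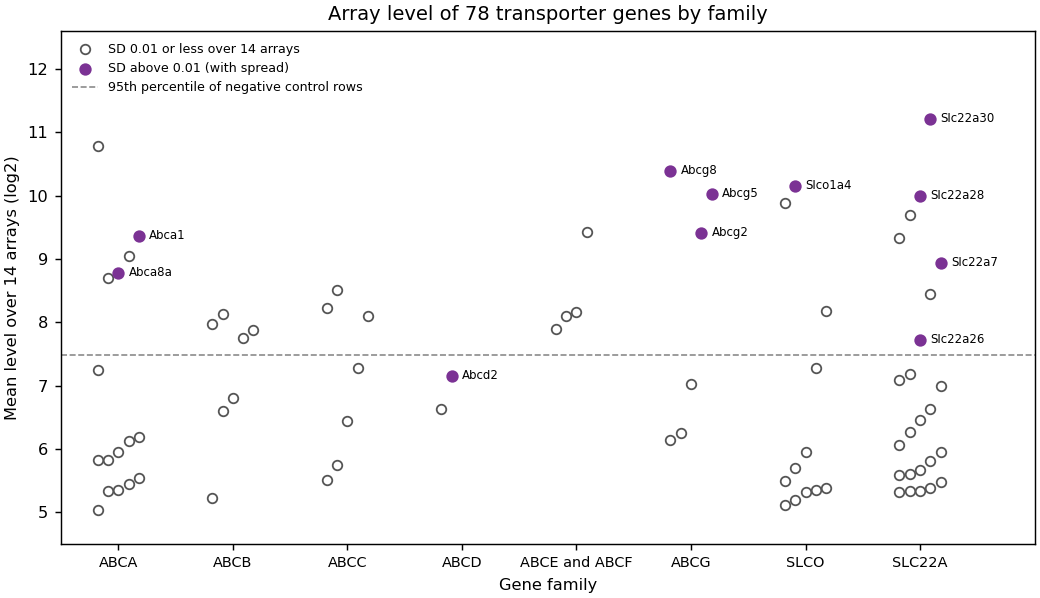
Mean log2 level over 14 arrays (vertical axis) of each of the 78 genes by family (horizontal axis), with filled points for the 11 genes with spread, open points for the other 67 and a dashed line at 7.48, the 95th percentile of the negative control rows. Of the filled points only Abcd2 lies below the line, and Slc22a26 lies above it only through its no-compression mean.

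Spread was found in 9 of the 28 genes whose level lay above the 75th percentile of all probe sets, and in 2 of the others, Abcd2 and Slc22a26. Above that percentile 19.7% of all probe sets had spread. ABCG held 3 genes with spread of 6 and SLC22A 4 of 24. ABCA held 2 of 16, ABCD 1 of 2 and SLCO 1 of 12, whereas the genes taken from ABCB, ABCC, ABCE and ABCF held 0. These counts do not cover Abcb4, Abcb11, Abcc2, Abcc3 and Abcc4, which the rule left out.

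No gene of the group passed limma (adjusted p over all 22206 probe sets, limit 0.05, where 0 probe sets, or 0%, passed). Among the 11 genes with spread the mean was higher in the compression group for 3, Slc22a7, Abcg2 and Abca8a, and lower for 8, with a median log2 fold change of −0.07. Of all probe sets with spread 48.3% had the higher mean in the compression group, with a median of −0.0029. The differences ran from −0.65 for Slc22a26, whose mean in compression livers lay below the negative control limit, to 0.42 for Slc22a7. The median size of the difference was 0.12 for the 11 genes and 0.08 for all probe sets with spread, and among the 67 other genes the largest size was 0.000335, in Abca6. The adjusted p of limma lay between 0.943 and 0.988 for the 11 genes, and an unadjusted p under 0.05 was found for 0 of them, beside 7.43% of all probe sets with spread. Of all 78 genes 2 had one, Abca6 and Abcb5, both without spread, beside 5.19% of all probe sets. The groups overlapped in all 78 genes, and they did so in all but 17 of 22206 probe sets (0.0766% not overlapping). These 17 were all without spread, since the groups overlapped in all 1238 probe sets with spread.
Rank products, the method named in the study's methods, gave 2 genes as higher, Slc22a7 and Abcg2, beside 1.26% of all probe sets. It gave 5 as lower, Slc22a26, Slc22a28, Slc22a30, Abca1 and Abca8a, beside 1.22%. Abca8a was thus called lower although its mean was higher in the compression group. In either direction it called 7 of the 78 genes, beside 2.45% of all probe sets, and 7 of the 11 with spread, beside 43.0% of all probe sets with spread. Of the 544 probe sets that it called, 532 had spread. The exact permutation test, over all splits of the 14 arrays into groups of 7, gave an adjusted p under 0.05 for 0 genes, with 0.000583 as the smallest unadjusted p it allows. After adjustment over 22206 probe sets a p of that size passes only where many probe sets reach it. The lowest adjusted p of this test over all probe sets was 0.761, so it says little on single genes.

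**Figure D2:**
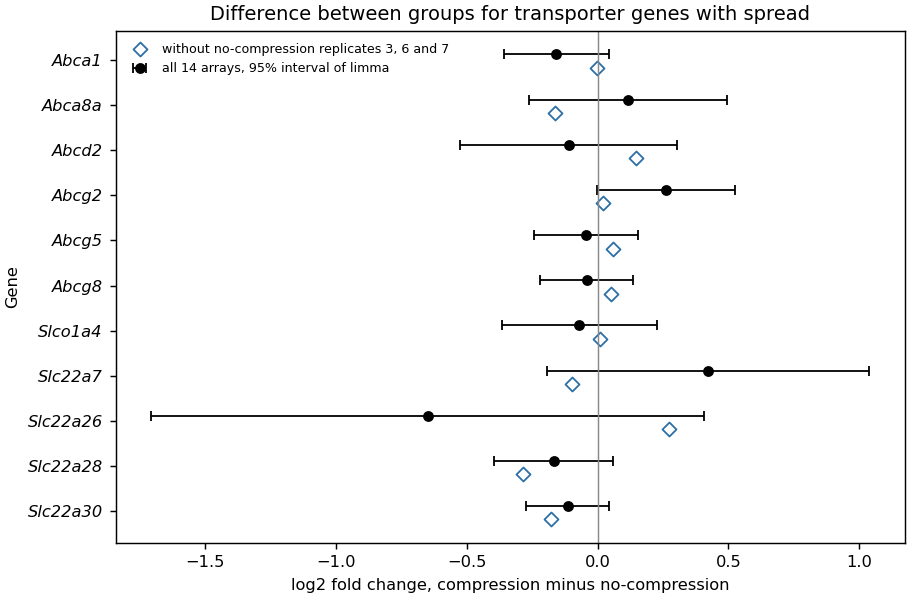
Log2 fold change of the 11 genes with spread, compression minus no-compression (horizontal axis), with filled points and 95% intervals of limma for all 14 arrays and open diamonds for the values without no-compression replicates 3, 6 and 7. All 11 intervals include 0, and 7 diamonds lie on the other side of 0 from the filled point.

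Among the sterol and lipid carriers, means were lower in the compression group for Abca1, Abcg5, Abcg8 and Abcd2 and higher for Abca8a. Each of their 95% intervals of limma included 0. Abca1, which hands cholesterol and phospholipid to apolipoprotein A-I, ran from 9.01 to 9.41 with a median of 9.31 in compression livers, against 9.21 to 9.80 with a median of 9.35 in no-compression livers. Its lowest array was compression replicate 3 and its 3 highest were no-compression replicates 6, 3 and 7, at 9.80, 9.60 and 9.56, while the other 4 no-compression arrays lay within the range of the compression group. The means were 9.29 ± 0.13 in compression livers and 9.45 ± 0.21 in no-compression livers (SD, n = 7 each), a log2 fold change of −0.16 with a 95% interval of −0.36 to 0.04 (limma, adjusted p = 0.943). It was −0.11 without compression replicate 3, −0.10 without no-compression replicate 6 and −0.0025 without no-compression replicates 3, 6 and 7.
Abcg5 and Abcg8 are the subunits of 1 sterol exporter, which secretes cholesterol and plant sterols into bile. Abcg5 ran from 9.91 to 10.22 with a median of 9.98 in compression livers, against 9.84 to 10.50 with a median of 9.96 in no-compression livers. Abcg8 ran from 10.22 to 10.57 with a median of 10.35 in compression livers, against 10.24 to 10.76 with a median of 10.34 in no-compression livers. In both genes the highest array was no-compression replicate 6 and the second highest compression replicate 4. The log2 fold changes were −0.04 (95% interval −0.24 to 0.16) for Abcg5 and −0.04 (95% interval −0.22 to 0.14) for Abcg8, and they were 0.03 and 0.02 without no-compression replicate 6 and 0.06 and 0.05 without replicates 3, 6 and 7.
Abcd2, a peroxisomal carrier of very long chain fatty acids, ran from 6.499 to 7.47 with a median of 7.16 in compression livers, against 6.75 to 7.89 with a median of 7.04 in no-compression livers. The groups overlapped over most of this range, and 6 of the 7 no-compression arrays lay within that of the compression group. The log2 fold change was −0.11 (95% interval −0.53 to 0.30), and without no-compression replicate 7, the highest array, it was 0.0023. Without no-compression replicates 3, 6 and 7 it was 0.15. Both group means, 7.10 in compression livers and 7.21 in no-compression livers, lay below the negative control limit.
Abca8a lies in a cluster of 5 ABCA genes on chromosome 11 with Abca8b, Abca9, Abca6 and Abca5, of which it alone had spread. It ran from 8.65 to 8.93 with a median of 8.86 in compression livers, against 7.85 to 9.12 with a median of 8.93 in no-compression livers. The no-compression group held both the lowest arrays, replicates 6 (7.85) and 3 (8.33), and the 4 highest. Its SD was 0.10 in compression livers and 0.46 in no-compression livers. The log2 fold change of 0.12 (95% interval −0.26 to 0.50) became −0.03 without no-compression replicate 6 and −0.16 without replicates 3, 6 and 7.

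Among the drug and organic ion carriers, Abcg2 and Slc22a7 had higher means in the compression group and Slc22a26 a lower one, and in these 3 genes no-compression replicates 3, 6 and 7 lay together at 1 end. Abcg2, which exports drugs, urate and sulfate conjugates, ran from 9.45 to 9.67 with a median of 9.53 in compression livers, against 8.83 to 9.62 with a median of 9.40 in no-compression livers. No-compression replicates 6, 3 and 7 were the lowest arrays, at 8.83, 9.003 and 9.02, and the other 4 no-compression arrays lay between 9.40 and 9.62. The means were 9.54 ± 0.07 in compression livers and 9.28 ± 0.32 in no-compression livers (SD, n = 7 each), a log2 fold change of 0.26 with a 95% interval of −0.000964 to 0.53 (limma, unadjusted p = 0.0507, adjusted p = 0.943). Without these 3 arrays it was 0.02.
Slc22a7, an uptake carrier of small organic anions and nucleotides, ran from 8.77 to 9.46 with a median of 9.14 in compression livers, against 7.70 to 9.61 with a median of 8.77 in no-compression livers. The lowest arrays were again no-compression replicates 6 (7.70), 3 (8.02) and 7 (8.39), and the highest was no-compression replicate 4. The log2 fold change was 0.42 (95% interval −0.19 to 1.04, adjusted p = 0.949 from limma), or 1.34-fold. It was 0.25 without no-compression replicate 6 and −0.10 without all 3.
Slc22a26, a member of an organic anion transporter cluster on chromosome 19, ran from 6.83 to 7.94 with a median of 7.39 in compression livers, against 6.82 to 10.01 with a median of 7.49 in no-compression livers. No-compression replicates 7 (10.01), 6 (9.14) and 3 (8.66) were the highest arrays, and the other 4 no-compression arrays lay between 6.82 and 7.49. The mean was 7.39 ± 0.43 in compression livers, below the negative control limit of 7.48, and 8.04 ± 1.24 in no-compression livers (SD, n = 7 each), so that the size of the difference is uncertain at its lower end. Its log2 fold change of −0.65 (95% interval −1.71 to 0.41, adjusted p = 0.967 from limma) was −0.32 without no-compression replicate 7 and 0.27 without all 3.
With Abca1 these made 4 of 11 genes (36.4%) in which the 3 arrays were the 3 highest or the 3 lowest, beside 33.8% of all probe sets with spread. These arrays were picked out on probe sets that include the 11 genes.
Slco1a4, which takes up organic anions and cardiac glycosides, ran from 9.51 to 10.42 with a median of 10.10 in compression livers, against 9.86 to 10.45 with a median of 10.18 in no-compression livers. Compression replicate 3 was its lowest array, and without it the log2 fold change of −0.07 (95% interval −0.37 to 0.23) was 0.03. It was 0.0093 without no-compression replicates 3, 6 and 7. Of no-compression replicates 3, 6 and 7 the last was its highest array at 10.45, and the others lay within the range of the compression group at 10.28 and 10.14. Compression replicate 3 was the lowest of the 14 arrays in 5 of the 11 genes (Abca1, Abcd2, Slco1a4, Slc22a28 and Slc22a30), or 45.5%, beside 25.0% of all probe sets with spread.

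**Figure D3:**
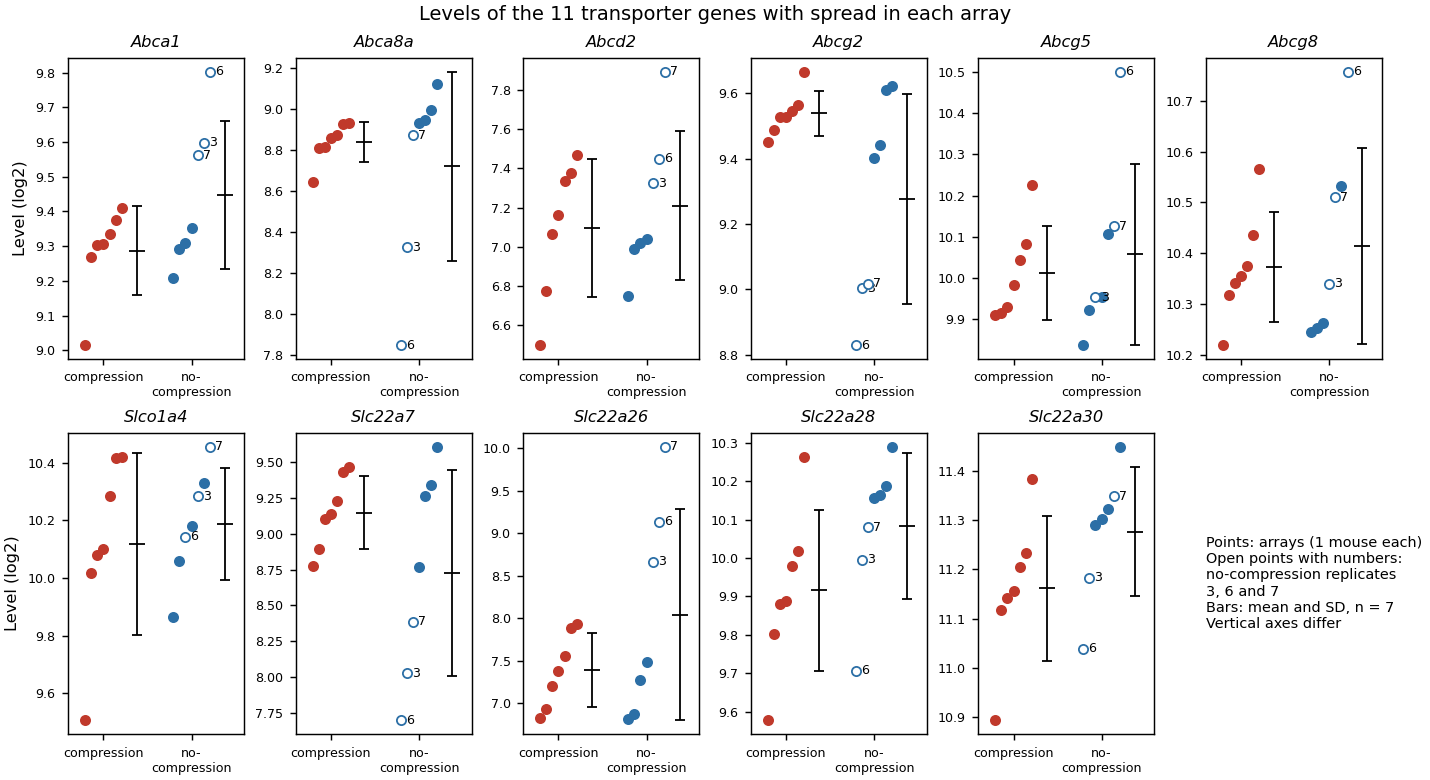
Log2 level (vertical axes, which differ between panels) of the 11 genes with spread in each array, compression left and no-compression right, with points in rank order within a group and bars for mean and SD (n = 7). Open numbered points are no-compression replicates 3, 6 and 7, which lie at 1 end in Abca1, Abcg2, Slc22a7 and Slc22a26.

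Slc22a28 and Slc22a30, of the same cluster as Slc22a26, had lower means in the compression group, and of the 11 genes these were the ones whose difference kept its sign and was larger without no-compression replicates 3, 6 and 7. Slc22a28 ran from 9.58 to 10.26 with a median of 9.89 in compression livers, against 9.71 to 10.29 with a median of 10.16 in no-compression livers. No-compression replicates 1, 2, 4 and 5 lay between 10.16 and 10.29, above all compression arrays other than replicate 5. Its means were 9.92 ± 0.21 in compression livers and 10.08 ± 0.19 in no-compression livers (SD, n = 7 each), a log2 fold change of −0.17 with a 95% interval of −0.40 to 0.06 (limma, adjusted p = 0.943). It was −0.11 without compression replicate 3, −0.23 without no-compression replicate 6 and −0.28 without no-compression replicates 3, 6 and 7, where the adjusted p of limma was 0.954.
Slc22a30 ran from 10.89 to 11.38 with a median of 11.16 in compression livers, against 11.04 to 11.45 with a median of 11.30 in no-compression livers. Its log2 fold change of −0.12 (95% interval −0.27 to 0.04, adjusted p = 0.943 from limma) was −0.07 without compression replicate 3 and −0.18 without no-compression replicates 3, 6 and 7. In both genes compression replicate 3 was the lowest array, no-compression replicate 6 the second lowest and no-compression replicate 1 the highest.

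Genes with spread that share a gene cluster were set side by side across the 14 arrays, which made 4 pairs, Abcg5 with Abcg8 and the 3 pairs of the chromosome 19 genes. That cluster holds 8 of the 78 genes, 3 of them with spread, and between these lie Slc22a27 and Slc22a29, which had none. Abcg5 and Abcg8 varied together, with Pearson's r = 0.938 (permutation p = 2e-05, adjusted over the 4 pairs 4e-05) and Spearman's rho = 0.780 (permutation p = 0.00152, adjusted 0.00304). Pearson's r was 0.854 within the compression group and 0.961 within the no-compression group, and 0.835 without compression replicate 4 and no-compression replicate 6, the arrays farthest from the median. Slc22a28 and Slc22a30 did so too, with r = 0.970 (permutation p = 1e-05, the smallest that 100000 resamples can give, adjusted 4e-05) and rho = 0.952 (permutation p = 1e-05, adjusted 4e-05). Here r was 0.977 within the compression group, 0.946 within the no-compression group and 0.939 without compression replicate 3 and no-compression replicate 6. Slc22a26 gave r = −0.20 with Slc22a28 (permutation p = 0.49, adjusted 0.653) and r = −0.09 with Slc22a30 (permutation p = 0.752, adjusted 0.752), with rho of −0.38 (permutation p = 0.189, adjusted 0.252) and −0.27 (permutation p = 0.361, adjusted 0.361). Within the compression group r was 0.04 for both pairs and within the no-compression group −0.66 and −0.45, and without no-compression replicates 6 and 7 it was −0.18 and −0.22. These pairs are 4 of many that could be formed from the 11 genes. The permutation p sets a pair against arrays in random order and not against other pairs. The leading axis held 57.1% of the variance of all probe sets with spread. How often other pairs of them reach such r was not computed. Whether probes of Slc22a28 also read Slc22a30 was not tested.

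**Figure D4:**
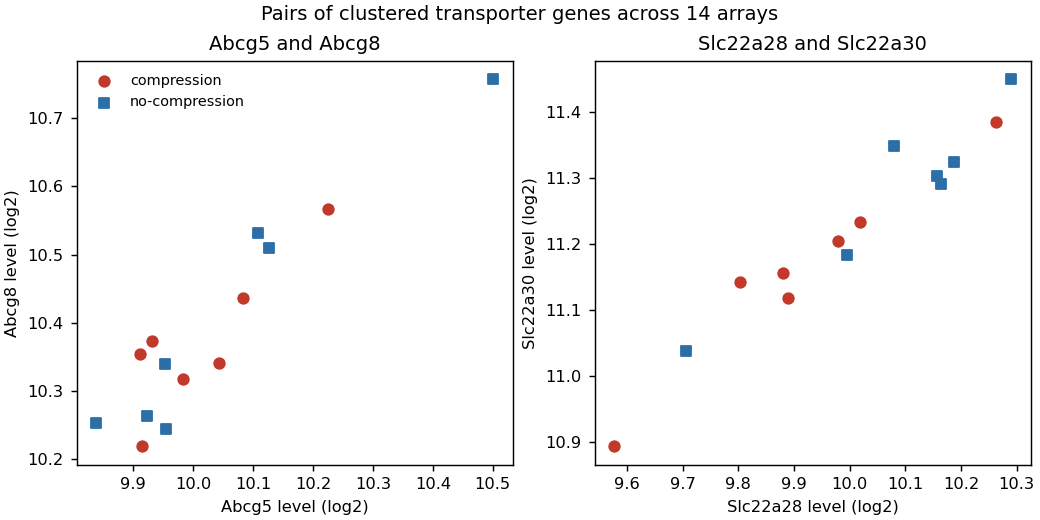
Log2 levels of Abcg5 (horizontal axis) against Abcg8 (vertical axis) on the left and of Slc22a28 against Slc22a30 on the right, 1 point per array, with circles for compression and squares for no-compression. In both panels the points of both groups lie along 1 line, with r = 0.938 and r = 0.970.

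The start sites of both pairs are shown because their genes varied together. Abcg5 and Abcg8 are transcribed away from each other, and 109 bases lie between the start of Abcg5 and the nearest start of Abcg8 in RefSeq, whose entry for Abcg8 also holds a start inside the bounds of Abcg5 (GRCm38.p6, chr17:84683012-84683120, plus strand, the sense strand of Abcg8). Capitals mark the letters GATAA on either strand, a match to the GATA box, of which this stretch holds 2.
Abcg5 Abcg8 intergenic: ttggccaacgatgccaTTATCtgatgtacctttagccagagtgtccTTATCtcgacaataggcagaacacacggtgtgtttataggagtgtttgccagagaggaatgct
The 250 bases before the starts of Slc22a28 (GRCm38.p6, chr19:8131983-8132232, minus strand) and Slc22a30 (GRCm38.p6, chr19:8405106-8405355, minus strand) are shown from RefSeq with capitals at the bases that differ between them in a global alignment. Over 244 aligned bases 238 were identical (97.5%) and 6 differed. No other pair of the cluster was aligned, so whether such identity goes with joint variation was not tested.
Slc22a28 upstream: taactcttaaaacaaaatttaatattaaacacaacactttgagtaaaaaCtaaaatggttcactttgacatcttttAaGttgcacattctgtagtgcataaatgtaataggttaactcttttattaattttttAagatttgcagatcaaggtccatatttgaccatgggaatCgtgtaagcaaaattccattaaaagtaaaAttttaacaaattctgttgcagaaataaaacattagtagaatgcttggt
Slc22a30 upstream: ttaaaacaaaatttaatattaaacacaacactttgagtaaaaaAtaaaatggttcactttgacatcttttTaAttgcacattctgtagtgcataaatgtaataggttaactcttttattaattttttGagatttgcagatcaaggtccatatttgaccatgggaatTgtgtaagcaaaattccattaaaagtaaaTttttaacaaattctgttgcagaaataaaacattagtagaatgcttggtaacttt
RefSeq promoters of 250 bases before to 50 after a start were found for 9 of the 11 genes with spread (all but Abcd2 and Slc22a7), 12 promoters in all. GATAA on either strand was present in 3 of these genes, Abcg2, Abcg5 and Abcg8, of which Abcg5 and Abcg8 share a stretch, and in 25.4% of 32851 promoters. TATAAA on either strand was present in 4, Abca1, Abcg2, Abcg5 and Abcg8, and in 13.6% of all promoters. A GATAA and a TATAAA cannot share bases, whereas TATAAA can overlap its own match on the other strand. Direct repeats of AGGTCA with a spacer of 1 base or of 4 bases, and GTTAAT followed after 1 base by ATTAAC, searched on both strands without a mismatch, were in 0 of the 12 and in 13, 5 and 3 of all promoters (0.0396%, 0.0152% and 0.00913%). Such a match describes the letters of the window and not a bound site.

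Spread within a group was larger in no-compression livers for most of the 11 genes. The SD was larger in no-compression livers for 8 of them (72.7%), beside 66.4% of all probe sets with spread, and larger in compression livers for Slco1a4, Slc22a28 and Slc22a30. The ratio of the SD in no-compression livers to that in compression livers was 4.74 for Abca8a, 4.72 for Abcg2, 2.85 for Slc22a26 and 2.80 for Slc22a7, and it was 0.615 for Slco1a4. No-compression replicate 6 was the highest or lowest of all 14 arrays in 6 of the 11 genes (54.5%), beside 48.4% of all probe sets with spread.

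Of the genes listed as working with these carriers most had no spread, and 0 passed limma. Those with spread had mostly higher means in the compression group, beside 48.3% of all probe sets with spread, and in part of the lists this direction was not kept without no-compression replicates 3, 6 and 7, where 46.0% of all probe sets with spread had the higher mean. Among the receptors that control drug transporters 11 of 13 listed genes were measured and 2 had spread, both higher. Nr1i3, the constitutive androstane receptor, averaged 10.85 ± 0.16 in compression livers and 10.35 ± 0.54 in no-compression livers (SD, n = 7 each), a log2 fold change of 0.50 that was 0.08 without no-compression replicates 3, 6 and 7. Ppara, which senses fatty acids, averaged 10.26 ± 0.07 in compression livers and 10.03 ± 0.26 in no-compression livers (SD, n = 7 each), with 0.23 and, without these arrays, 0.07.
Of 14 measured genes of cholesterol efflux and the LXR pathway 6 had spread, and all 6 means were higher (median log2 fold change 0.05). Without the 3 arrays 4 were higher and 2 lower (median 0.01), with 0.09 in place of 0.24 for Npc1, which moves cholesterol out of lysosomes, and −0.13 in place of 0.05 for the sterol carrier Stard4. Of 12 measured partners of the peroxisomal carriers 7 had spread, all with higher means (median 0.07), and without the 3 arrays 3 were higher and 4 lower (median −0.01). Of 8 measured genes of carnitine synthesis and transport 6 had spread, all with higher means (median 0.16), and without the 3 arrays 5 were higher and 1 lower (median 0.03). Cpt1a, the entry enzyme of mitochondrial fatty acid oxidation, had 0.23 and 0.15 without the 3 arrays. Of 22 measured further carriers of organic ions and nucleosides 5 had spread, 4 higher and 1 lower (median 0.03), and without the 3 arrays 1 was higher and 4 lower (median −0.01). Among them Slc47a1, which exports organic cations, averaged 9.88 ± 0.06 in compression livers and 9.81 ± 0.11 in no-compression livers (SD, n = 7 each), a log2 fold change of 0.07 that was 0.0062 without the 3 arrays. The named genes of these lists were chosen after their values were seen.
Bulk liver cannot tell fewer cells of a type from less RNA per cell. Of the Kupffer cell markers 3 of 7 had spread, 1 higher and 2 lower, and the mean level of the list ran from 8.13 to 8.25 in compression livers and from 8.14 to 8.36 in no-compression livers. Without the 3 arrays all 3 were higher. All 3 measured neutrophil markers had spread and lower means, and their mean level ran from 5.74 to 5.91 in compression livers and from 5.71 to 6.31 in no-compression livers. Their median log2 fold change was −0.19, and without the 3 arrays all 3 means were higher, with a median of 0.03. Of the sinusoidal endothelial markers 1 of 6, of the stellate cell markers 1 of 6 and of the hepatocyte markers 1 of 6 had spread. The hepatocyte marker with spread was Cyp3a11, a drug-metabolizing enzyme, with a log2 fold change of −0.18, which was −0.01 without the 3 arrays. The other hepatocyte markers, Alb, Ttr, Apoa2, Serpina1a and Tat, had no spread. The part of these cells in the values of the carriers was not tested.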

How the data were processed

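Livers of 14 mice were measured on 14 arrays, 1 array per mouse. The log2 values were deposited by the authors, who summarised the array files by qFarms, in which probes are quantile normalized and each probe set is condensed by factor analysis. R 3.4.4 is named in the submitters' processing notes. No genome build is given in the sources used here. Of 29129 rows 6923 control rows were left out, and 22206 probe sets were tested, of which the platform annotation names 1 gene for 19572, several for 0 and none for 2634. The symbols of all 78 genes matched RefSeq by gene identifier.
Groups were taken from the sample titles. The main test was limma (version 3.58.1 under R 4.3.3, lmFit with eBayes, two-sided, Benjamini-Hochberg adjustment over 22206 probe sets, limit 0.05). Rank products (FDR limit 0.01, 49 random pairings) and the exact permutation test were run in Python 3.11.15 (pandas 2.3.3, scipy 1.17.1, numpy 2.4.6). Rank products assumes that ranks are exchangeable over probe sets, whereas most probe sets here were almost constant. Whether its FDR holds under this, or where many probe sets vary together across arrays, was not tested. The RankProd package was not run. The limit of 0.01 on the SD selects probe sets by their spread over both groups, so that counts over genes with spread are descriptions only. The number of arrays limits the precision, and no read depth applies. The p-values of limma set a difference against the spread between these mice, moderated over the probe sets in the fit. Scan dates and other batches are not known here.
The genes, lists and alternatives were chosen with earlier results of these data known. By the naming rule the text gives genes that the paper or its supplementary table names (Abca1, Abcg2), any past the limit of limma, in each family up to 3 genes with spread of the largest SD and the 2 with the highest mean, and the 5 largest differences in each direction. Other genes were named after their values were seen. The alternatives were other normalizations, filters, limma settings and tests, a block on replicate number, and fits without 1 or 3 arrays.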

Additional observations from a re-analysis of the deposited data

Results flagged for a closer look

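In Abca1 compression replicate 3 had a level of 9.01 and lay apart from the other compression arrays, of which the nearest was at 9.27. In Abca8a the same array had 8.65 and the nearest compression array 8.81. Dixon's test at the 95% level was applied to the 11 genes with spread in each group, 22 groups of 7 arrays in all, and marked these 2, where chance marks about 1 in 20. The log2 fold change without this array was −0.11 for Abca1 and 0.15 for Abca8a.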

How the results depend on the processing

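Under the limma settings tried 0 genes passed, of 78 tested or, where probe sets were filtered, of 41 (level above the median) and 11 (with spread), and the lowest adjusted p of limma among them lay between 0.360 (median centring) and 0.999 (robust and trended eBayes). Rank products called 7 genes in place of 0. Leaving out no-compression replicates 3, 6 and 7 together gave 6 of 11 genes with the higher mean in the compression group in place of 3, a median log2 fold change of 0.0093 in place of −0.07, and a turned sign for 7 of the 11 genes (Abca8a, Abcd2, Abcg5, Abcg8, Slco1a4, Slc22a7 and Slc22a26). The cause was not tested. With each array left out in turn, 0 genes passed, the count of higher means lay between 3 and 4, and the median lay between −0.12 (without compression replicate 6) and −0.03 (without no-compression replicate 7). It also moved without compression replicates 3 (−0.03), 4 (−0.11) and 7 (−0.10), and without no-compression replicates 1 (−0.05), 2 (−0.09) and 5 (−0.11). With array weights it was −0.03. Single arrays turned the sign of Slco1a4 (compression replicate 3), of Abca8a, Abcg5 and Abcg8 (no-compression replicate 6) and of Abcd2 (no-compression replicate 7). Quantile normalization gave a median of −0.08. Whether the labels' replicate numbers pair the mice is not stated. Same-numbered arrays correlated at −0.488 to 0.336 and only 2 of 7 pairs exceeded 0.1, which cannot show how the mice were handled. With the replicate number as a block 0 genes passed and the median was −0.07. Each gene had 1 probe set, so that using every probe set changed nothing.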
